A study of Homo sapiens with 4 samples.

Results

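The HIST1 locus on chromosome 6 is the main store of replication-dependent histone genes in the human genome, and its H3K27ac anchors and loops were read in 4 untreated colorectal cancer cell lines. The members were the anchors and loops in 2 blocks of chromosome 6 in the hg19 build, from 26.0 to 26.3 Mb (block 1, 300 kb) and from 27.0 to 27.9 Mb (block 2, 900 kb), with the 700 kb between them measured as a gap. The blocks held 46 of 21930 anchors of HCT116, 46 of 22136 of LS513, 20 of 9350 of SW480 and 34 of 24555 of SW620. Filtered loops with at least 1 anchor midpoint in a block were 229 of 40696 for HCT116, 393 of 74401 for LS513, 28 of 7024 for SW480 and 178 of 62104 for SW620. In the RefSeq table used for names (GRCh38.p14), 53 coding HIST1 genes belonged to the cluster.

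Each line gave 1 library of H3K27ac HiChIP, an assay that ligates DNA segments lying close together in fixed nuclei and pulls down the ligations that carry acetylated lysine 27 of histone H3, a mark of active promoters and enhancers. The count for a pair of anchors is its number of paired-end tags (PETs). The labels class HCT116 and LS513 as colorectal carcinoma (LS513 as Dukes' type C), SW480 as Dukes' type B adenocarcinoma and SW620 as Dukes' type C adenocarcinoma, and no line was treated. With 1 library per line there was no spread between replicates and no significance test, and all intervals (95%) cover counting error only. The lines are known by label alone, since no hg19 gene annotation was used to look at markers of the colon.

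Replication-dependent histone genes are transcribed in S phase, when new DNA must be wrapped, and their messenger RNAs end in a stem-loop in place of a poly(A) tail. They encode the core histones H2A, H2B, H3 and H4, which form the nucleosome, and the linker histone H1, which binds DNA between nucleosomes. In the nucleus these genes lie in histone locus bodies, where the factors for their transcription and 3′ processing gather. H3, whose lysine 27 carries the mark measured here, is itself one of the products.

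The 53 genes lay in 3 runs in the order of the RefSeq table. A new run began where 3 or more other coding genes intervened, so up to 2 in a row could lie inside a run. The first run, from H1-1 to H4C8, had 32 genes, with 5 for H1, 4 for H2A, 8 for H2B, 7 for H3 and 8 for H4. The second, from H2BC11 to H2AC12, had 5 genes, with 2 for H2A, 2 for H2B and 1 for H4. The third, from H2BC13 to H2BC17, had 16, with 1 for H1, 5 for H2A, 4 for H2B, 3 for H3 and 3 for H4. Between the first and second runs stood 9 other coding genes, 6 of them butyrophilin genes such as BTN3A2 and BTN2A1, together with 47 transfer RNA genes. Between the second run and the third stood 5 other coding genes, ZNF391 and ZNF184 among them, and 51 transfer RNA genes. This order was read within GRCh38.p14, no coordinate was converted to hg19, and no gene was assigned to an anchor.

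The promoters of the cluster are shown because they carry the sequence features that its genes share and by which the histone classes differ. For each class, the 250 bases before the start of its first gene in the table are printed 5′ to 3′ from RefSeq (GRCh38.p14), with the TATA motif TATAAA, the CCAAT box and the octamer ATTTGCAT in capitals. Motifs were searched on both strands, and a match on the other strand appears as its reverse complement. They lie at H1-1 chr6:26017788-26018037 (minus strand), H3C1 chr6:26020201-26020450 (plus strand), H4C2 chr6:26027284-26027533 (minus strand), H2AC4 chr6:26033619-26033868 (minus strand) and H2BC3 chr6:26043714-26043963 (minus strand).
H1-1: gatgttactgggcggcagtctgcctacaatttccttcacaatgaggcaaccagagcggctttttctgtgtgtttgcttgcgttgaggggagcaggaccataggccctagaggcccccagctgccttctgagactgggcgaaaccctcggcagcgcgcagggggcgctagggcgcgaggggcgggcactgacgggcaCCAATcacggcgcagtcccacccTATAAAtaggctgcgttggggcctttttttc
H3C1: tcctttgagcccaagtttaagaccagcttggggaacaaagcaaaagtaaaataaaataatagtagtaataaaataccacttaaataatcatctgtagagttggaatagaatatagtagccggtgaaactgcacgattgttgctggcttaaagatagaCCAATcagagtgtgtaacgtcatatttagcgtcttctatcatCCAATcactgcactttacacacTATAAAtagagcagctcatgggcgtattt
H4C2: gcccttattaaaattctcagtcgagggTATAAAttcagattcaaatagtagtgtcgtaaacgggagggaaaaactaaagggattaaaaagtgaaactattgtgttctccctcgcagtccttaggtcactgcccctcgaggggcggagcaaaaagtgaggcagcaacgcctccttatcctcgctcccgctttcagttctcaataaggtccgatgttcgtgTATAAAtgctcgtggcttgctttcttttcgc
H2AC4: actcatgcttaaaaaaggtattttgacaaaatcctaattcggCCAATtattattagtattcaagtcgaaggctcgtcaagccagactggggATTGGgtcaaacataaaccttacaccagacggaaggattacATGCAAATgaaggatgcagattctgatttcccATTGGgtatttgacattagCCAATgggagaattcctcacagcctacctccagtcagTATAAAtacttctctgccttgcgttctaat
H2BC3: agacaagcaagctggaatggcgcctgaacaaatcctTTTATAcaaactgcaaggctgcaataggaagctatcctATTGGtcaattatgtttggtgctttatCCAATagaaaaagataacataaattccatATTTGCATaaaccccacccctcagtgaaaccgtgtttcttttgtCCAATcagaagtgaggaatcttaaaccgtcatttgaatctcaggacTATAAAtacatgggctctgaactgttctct

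All 5 held TATAAA, the core promoter element bound by the TATA-binding protein, 29 to 31 bases before the start. CCAAT, the element bound by NF-Y, was in 4 of them and absent from this window of H4C2. The octamer, bound by OCT1 in H2B promoters, was in H2AC4 and H2BC3 only among the 5. Over the same 250 bases of the 48 HIST1 promoters in the table, TATAAA was in 31 (64.6%) against 11.1% of all 27305 promoters. CCAAT was in 41 (85.4%) against 33.0%, and ATTTGCAT in 20 (41.7%) against 1.66%.

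The classes differed in which elements they held. The octamer was in 8 of 10 H2A promoters and 11 of 14 H2B promoters, in 1 of 8 for H3, and in none of 6 for H1 or 10 for H4. CCAAT was in every H1, H2A, H2B and H3 promoter of the table, but in 3 of 10 H4 promoters. TATAAA was spread over all classes, from 3 of 6 for H1 to 10 of 14 for H2B. In 8 cases the promoter entries of an H2A and an H2B gene overlapped (250 bases before to 50 after the start), and in 6 of these both genes held the octamer, so those counts share sequence. A match is a description of the letters and not a measured binding site.

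Depth sets what could be seen in each library. HCT116 had 81579 filtered PETs, LS513 222113, SW480 13885 and SW620 152421, of which chromosome 6 held 4.20% to 4.80%. PETs of an anchor with itself (same-anchor PETs), a measure of the H3K27ac signal at the anchor, numbered 863012, 1386645, 130508 and 844521. Rates below are per 1000000 filtered or same-anchor PETs of the library and are called normalised PETs. The floor used for a count of 0 was 3 PETs, or 36.8, 13.5, 216 and 19.7 normalised loop PETs in the same order. The exact interval of a count of 0 reaches higher, to 266 in SW480. HCT116 and LS513 had 21810 anchors of identical coordinates, all 46 of the blocks included, whereas SW480 and SW620 each had anchors of their own extent.

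Both blocks carried H3K27ac anchors in every line, and they were densest in block 1. In block 1, HCT116 had 881 normalised same-anchor PETs (interval 819 to 946, from 760 PETs), LS513 989 (937 to 1042, from 1371), SW480 1142 (966 to 1340, from 149) and SW620 832 (772 to 896, from 703). Block 2, which is longer, had 1007 (941 to 1076, from 869), 1231 (1173 to 1291, from 1707), 444 (337 to 575, from 58) and 572 (522 to 625, from 483) in the same order. The gap had 407, 298, 276 and 288. Anchors covered 30.5% of block 1 in HCT116 and LS513, 15.2% in SW480 and 38.9% in SW620. They covered 15.5%, 15.5%, 2.85% and 8.90% of block 2, and 1.91% to 9.92% of the gap. Per kb of anchor, block 1 held 1.23, 1.38, 1.65 and 1.14 times the same-anchor PETs of all anchors of its library, in the same order. Block 2 held 0.920, 1.13, 1.14 and 1.15 times.

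**Figure D1:**
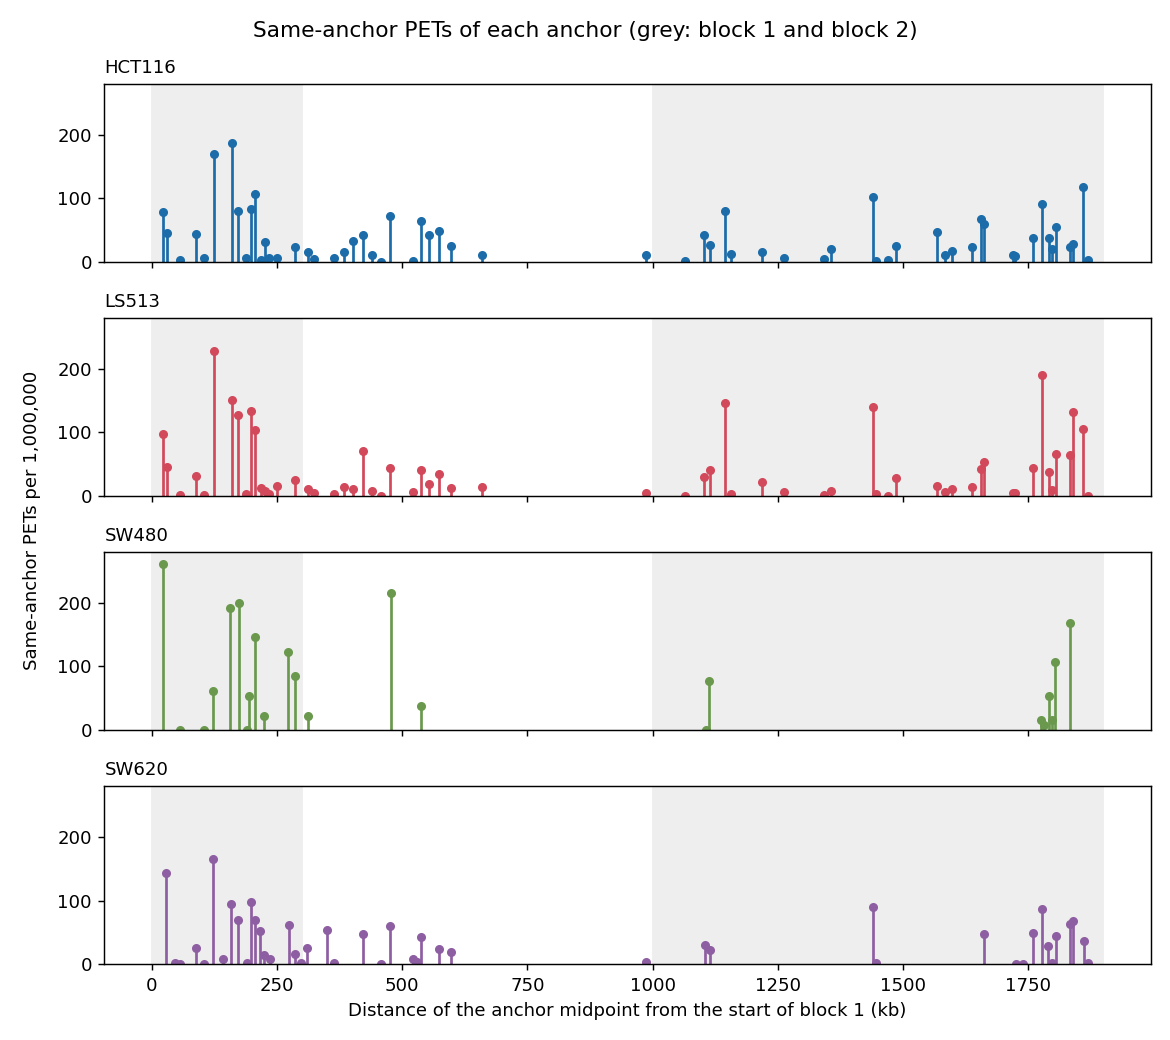
Same-anchor PETs per 1000000 of each anchor of the locus, by distance of its midpoint from the start of block 1 (kb), with 1 panel per library and the blocks in grey. Block 1 is filled with signal in every library, while the middle of block 2 has no anchor in SW480 and few in SW620.

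Merging overlapping anchors over the libraries gave 19 regions in block 1 and 31 in block 2. Of these, 11 in block 1 and 7 in block 2 had an anchor in all 4 libraries. Counted as HCT116 anchors, 11 of 16 in block 1 and 7 of 30 in block 2 overlapped anchors in all 4. Over all chromosomes 4777 of 21930 did. All 12 regions with a SW480 anchor in block 1, and all 7 in block 2, also had one in SW620. The share over all chromosomes is not given for this overlap, so it is not shown to be particular to the locus. Block 2 had 15 regions with anchors in HCT116 and LS513 and in neither SW480 nor SW620, 50.0% of the 30 it had in HCT116 and LS513. Block 1 had 1 of 15, and over all chromosomes 30.6% of 20682 such regions lacked an anchor in both SW480 and SW620. The strongest of these 15, chr6:27143543-27147002, had 69 same-anchor PETs in HCT116 and 202 in LS513, or 80.0 and 146 after normalisation, the fourth strongest anchor of the locus in LS513.

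The strongest anchors of block 1 recurred between lines. The region chr6:26114732-26127943 had 170 normalised same-anchor PETs in HCT116, 228 in LS513 and 165 in SW620 against 61.3 in SW480, and was the strongest of the locus in LS513 and SW620. The region chr6:26154185-26167452 had 187, 151, 192 and 94.7 in HCT116, LS513, SW480 and SW620, and led in HCT116. These rates and ranks count whole anchors, whose lengths differ, and are not per kb. The anchor of this second region was 13.3 kb in HCT116 and LS513, 4.4 in SW480 and 7.2 in SW620. That of the first was 7.48 kb in HCT116 and LS513 and 13.2 in SW620. SW480 was led by chr6:26019667-26023654 with 34 PETs (261 normalised), inside a merged region that had 124, 143 and 143 normalised PETs in HCT116, LS513 and SW620. In block 2 the leading region differed by line. It was chr6:27855835-27865516 in HCT116 (118 normalised PETs), chr6:27773040-27783102 in LS513 (190), the anchor chr6:27833318-27836994 in SW480 (169, from 22 PETs) and chr6:27439247-27441878 in SW620 (90.0).

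Loops within each block were about as frequent as their distances predict. For each pair class the observed PETs were divided by those expected if every possible anchor pair had the mean PETs of all pairs in the same 100 kb distance bin of that library. Within block 1, 35 loops with 96 PETs in HCT116 gave an observed over expected ratio of 1.04 (0.843 to 1.27). The 72 loops with 317 PETs in LS513 gave 1.30 (1.16 to 1.45), the 17 with 27 PETs in SW480 gave 0.722 (0.476 to 1.05), and the 66 with 167 PETs in SW620 gave 1.04 (0.890 to 1.21). Within block 2, HCT116 had 94 loops with 156 PETs and a ratio of 1.01 (0.857 to 1.18), and LS513 had 142 with 409 PETs and 0.984 (0.891 to 1.08). SW480 had 7 with 8 PETs and 0.610 (0.263 to 1.20), and SW620 had 39 with 98 PETs and 1.07 (0.869 to 1.30). None of these 8 ratios passed 2-fold. They were set against genome windows with at least 3 expected PETs. At 300 kb, 10.5% of 3090 windows passed in LS513, 12.5% of 776 in SW480, 12.3% of 2868 in SW620 and 10% of 2561 in HCT116. At 900 kb, 6.11% of 1588 passed in HCT116, 7.51% of 1851 in LS513, 10.1% of 754 in SW480 and 10.8% of 1683 in SW620. When each pair was weighted by the same-anchor PETs of its anchors, the ratio within block 2 became 2.99, 1.82, 2.84 and 2.20 in that order, and that within block 1 rose to 1.44 (0.949 to 2.10) for SW480.

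A single pair led block 1 in all 4 lines. The loop between chr6:26120463-26127943 and chr6:26154185-26167452, 36.6 kb apart, had 16 PETs in HCT116 and 36 in LS513, and the overlapping anchors had 3 in SW480 and 29 in SW620. These counts were 196, 162, 216 and 190 normalised PETs. In SW480 a second pair, chr6:26117690-26124645 with chr6:26171836-26174045, also had 3 PETs. In block 2 the leading loops differed. HCT116 was led by chr6:27803184-27808886 with chr6:27855835-27865516, at 8 PETs. LS513 was led by chr6:27832285-27836565 with chr6:27838290-27842982, at 26 PETs, a pair with 2 PETs in HCT116 and 9 in SW620. SW620 was led by chr6:27097792-27110643 with chr6:27112192-27116524, at 11 PETs.

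Loops joining the 2 blocks stood well above their distance expectation in HCT116, LS513 and SW620. How reads that fit several near-identical histone genes were placed is not given in the sources used here. Their part in the joining PETs was not tested. HCT116 had 24 joining loops with 25 PETs, LS513 had 68 with 93 PETs, SW620 had 27 with 36 PETs, and SW480 had 3 with 3 PETs. They spanned a median of 1595 kb in HCT116, 1555 in LS513, 1572 in SW620 and 1592 in SW480. The observed over expected ratio was 3.74 in HCT116 (2.42 to 5.52), 5.29 in LS513 (4.27 to 6.48), 7.86 in SW620 (5.51 to 10.9) and 4.65 in SW480 (0.959 to 13.6). The SW480 interval includes 1, so an excess was not detectable at its depth. A PET was seen for 5.00% of the possible joining pairs in HCT116, 14.2% in LS513, 9.38% in SW620 and 3.13% in SW480. Over all anchor pairs on any chromosome at the same distances, this share was 1.38%, 3.44%, 1.74% and 0.719% in that order.

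**Figure D2:**
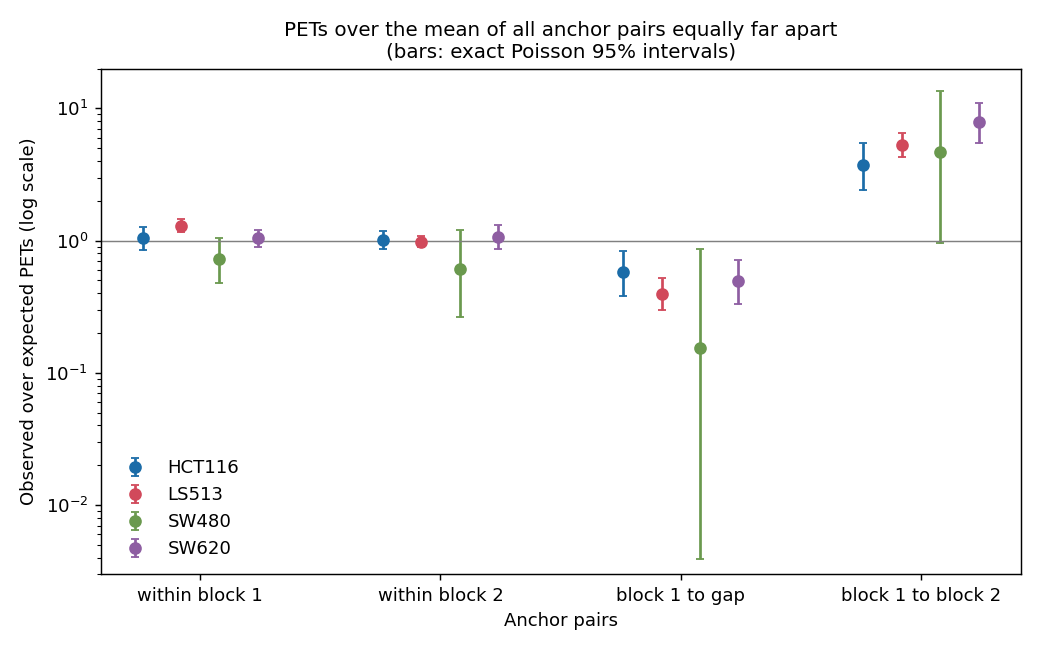
Observed over expected PETs (log axis) for each class of anchor pairs in the 4 libraries, with exact Poisson 95% intervals and a line at 1. Pairs joining the blocks sit at 3.74 to 7.86, pairs within a block at 0.610 to 1.30, and pairs from block 1 to the gap below 1.

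Other places in the genome laid out like the blocks rarely reached these ratios. Windows of 300 and 900 kb separated by 700 kb, with at least 3 expected PETs and outside the histone blocks, had a median ratio of 0.643 in HCT116 (271 placements), 0.684 in LS513 (1000) and 0.650 in SW620 (627). The share of them past 2-fold was 4.43% in HCT116, 5.8% in LS513 and 6.38% in SW620, where the histone blocks passed in each. Placements at or above the histone value numbered 2, 5 and 2. No SW480 placement was compared, because the histone blocks had only 0.645 expected PETs there. With the expectation taken from chromosome 6 alone, the joining ratio fell to 2.24 in HCT116 (1.45 to 3.31) and 3.44 in LS513 (2.78 to 4.22). Weighted by same-anchor PETs it was 6.61 in HCT116, 6.80 in LS513 and 11.5 in SW620.

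Relative to distance, block 1 met block 2 more than it met the gap between them. Pairs from block 1 to anchors in the gap, which are nearer, had a ratio of 0.576 in HCT116 (27 PETs), 0.397 in LS513 (52 PETs), 0.155 in SW480 (1 PET) and 0.499 in SW620 (29 PETs). The joining ratio was 6.49 times this value in HCT116 (3.61 to 11.6), 13.3 times in LS513 (9.38 to 19.1) and 15.8 times in SW620 (9.39 to 26.6). In SW480 it was 30.0 times, with an interval from 2.41 to 1574 that rests on 3 PETs against 1. Pairs were not weighted by same-anchor PETs in this contrast. Per kb, gap anchors held 0.745, 0.549, 1.35 and 0.758 times the same-anchor PETs of all anchors in HCT116, LS513, SW480 and SW620. The part of anchor strength in the contrast was not tested. Loops from block 1 to anchors outside the blocks and the gap were few, with 4 PETs in HCT116, 16 in LS513 and 5 in SW620 and ratios of 0.239, 0.353 and 0.221. SW480 had 0 such PETs of 0.235 expected, which allows a ratio of up to 15.7. From block 2 to the gap, HCT116 had a ratio of 1.79 (1.15 to 2.67), LS513 0.556 (0.340 to 0.859) and SW620 1.77 (0.848 to 3.25).

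**Figure D3:**
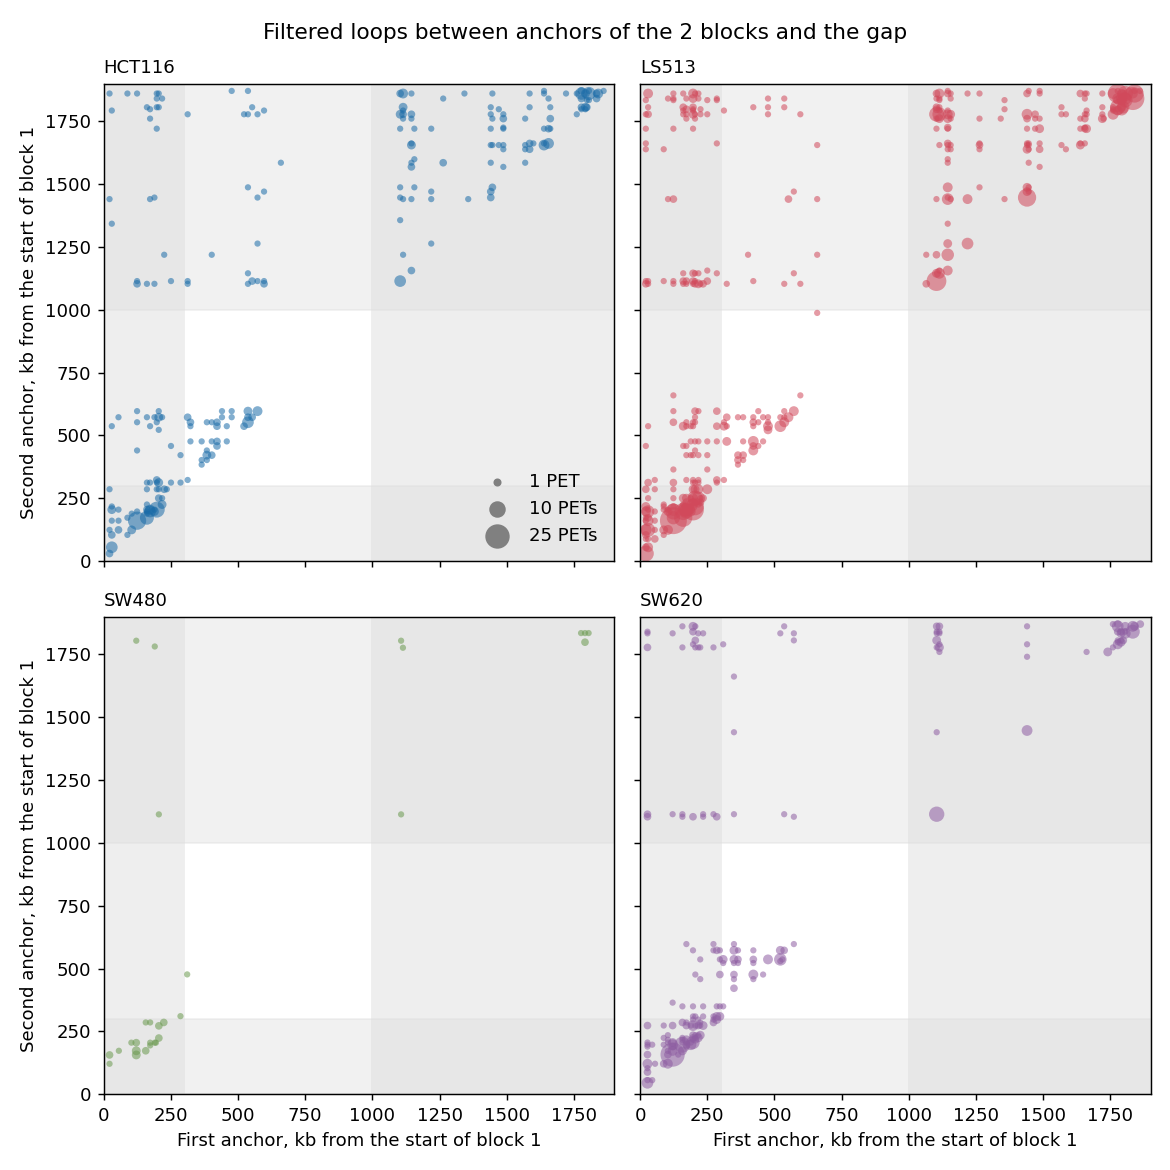
Filtered loops of the locus in each library, drawn as points at the positions of their anchors along hg19 (kb from the start of block 1) and sized by PETs. The joining loops gather at the ends of block 2, with 10 or fewer joining PETs in its middle in each library.

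The joining loops met block 2 mostly at its ends. Block 2 was divided, after its values were seen, into a near end (27.0 to 27.2 Mb), a middle (27.2 to 27.75 Mb) and a far end (27.75 to 27.9 Mb). The intervals for these parts, here and below, do not account for that choice. From block 1 to the near end the ratio was 3.50 in HCT116 (6 PETs), 7.71 in LS513 (35 PETs), 14.2 in SW620 (14 PETs) and 3.74 in SW480 (1 PET). To the far end, the more distant part, it was 8.93 (13 PETs), 12.4 (48 PETs), 10.2 (22 PETs) and 5.30 (2 PETs) in that order. To the middle it was 1.71 in HCT116 (6 PETs, 0.626 to 3.71) and 1.09 in LS513 (10 PETs, 0.523 to 2.01). SW620 had 0 PETs there, which allows a ratio of up to 2.59, and SW480 had no anchor in the middle. The far end stood above the middle 5.23-fold in HCT116 (1.86 to 16.8) and 11.4-fold in LS513 (5.68 to 25.2). The near end stood above it 7.07-fold in LS513 (3.43 to 16.0). In SW620, with 0 PETs to the middle, the intervals of these ratios began at 3.60 for the far end and 4.77 for the near end. In HCT116 that ratio was 2.05 with an interval from 0.548 to 7.66, so a difference was not detectable. Taking both ends together, the ratio over the middle in LS513 was 9.05 (4.68 to 19.6), and 3.71 (1.92 to 8.01) when pairs were weighted by same-anchor PETs. In HCT116 it was 3.51 (1.35 to 10.7), and 2.48 (0.952 to 7.59) when weighted, where the interval includes 1.

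The middle was not without signal. It held 370 same-anchor PETs in HCT116 against 140 at the near end and 359 at the far end, and 499 against 305 and 903 in LS513. SW620 had 117 against 45 and 321. These totals were over 16 anchors in the middle, 5 at the near end and 9 at the far end in HCT116 and LS513. In SW620 they were over 5, 2 and 9 anchors. Per anchor, the middle was weaker than the far end in all 3 libraries, and weaker than the near end in HCT116 and LS513.

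The 2 ends of block 2 also met each other more than distance predicts. The part of reads that fit several histone genes was not tested here either. Near end to far end gave a ratio of 13.3 in HCT116 (20 PETs, 8.14 to 20.6), 13.6 in LS513 (55 PETs, 10.2 to 17.7), 7.81 in SW480 (2 PETs, 0.945 to 28.2) and 20.4 in SW620 (17 PETs, 11.9 to 32.7). The middle, though nearer to the far end, met it with a ratio of 0.599 in HCT116, 0.464 in LS513 and 0.211 in SW620. The first ratio was 22.2 times the second in HCT116 (11.4 to 43.6), 29.2 times in LS513 (19.3 to 44.6) and 96.8 times in SW620 (36.4 to 299.7). Pairs were not weighted by same-anchor PETs here, and the part of the weaker middle anchors was not tested. Pairs inside the middle had ratios of 0.792, 0.462 and 0.814 in HCT116, LS513 and SW620, and pairs inside the far end 1.14, 1.61 and 1.09. Pairs inside the near end had 0.717 and 1.17 in HCT116 and LS513, and the single pair of anchors there in SW620 had 7.25 (11 PETs, 3.62 to 13.0). From the near end to the middle the ratio was 1.53 in HCT116 (0.892 to 2.45), 1.28 in LS513 (0.918 to 1.75) and 1.09 in SW620 (1 PET), so the low values of the middle were toward the far end and, in LS513, inside the middle. The ratio near 1 for block 2 as a whole is thus an average over parts above and below it.

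**Figure D4:**
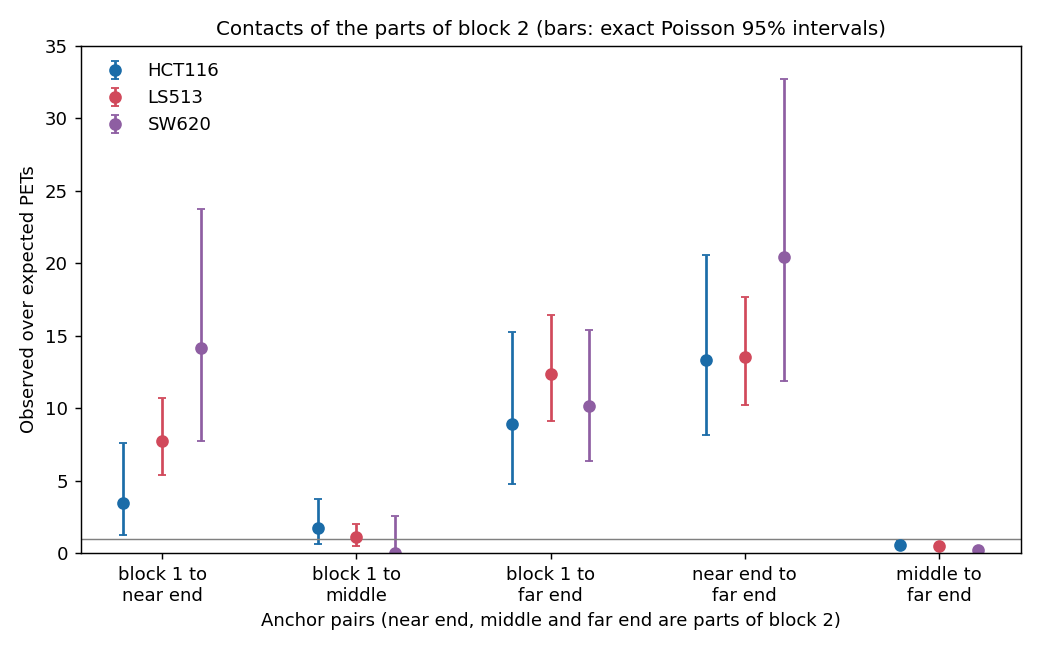
Observed over expected PETs between block 1 and the 3 parts of block 2, and between those parts, in HCT116, LS513 and SW620, with exact Poisson 95% intervals and a line at 1. Contacts between block 1, the near end and the far end lie above 1 in all 3, and contacts of block 1 or the far end with the middle lie between 0 and 1.71.

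The joining PETs were spread over many anchors and not carried by 1 pair. In LS513 they touched 13 of the 15 anchor regions of block 1 and 16 of the 30 of block 2. In HCT116 they touched 11 of 15 and 13 of 30, and in SW620 10 of 18 and 8 of 16. The block 1 region chr6:26193002-26201388 had 4 joining PETs in HCT116, 20 in LS513, 8 in SW620 and 0 in SW480, and chr6:26019036-26036529 had 4, 17, 8 and 0. In block 2, chr6:27097792-27110643 at the near end had 4, 15, 8 and 0, and chr6:27855835-27865516 at the far end had 5, 12, 5 and 0. Most single joining loops were thin, with 1 PET in 23 of 24 loops in HCT116, 50 of 68 in LS513, 3 of 3 in SW480 and 19 of 27 in SW620. At an FDR under 0.01 in the authors' deposited table, 1, 18, 0 and 8 joining loops were left.

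The loops with most joining PETs in LS513 had 4 each and joined chr6:26024854-26035370 and chr6:26193416-26201388 to the same far-end anchor, chr6:27855835-27865516. The second of these pairs had 1 PET in HCT116 and, at overlapping anchors, 3 in SW620, where it was the leading joining loop. HCT116 was led by chr6:26120463-26127943 with chr6:27097792-27108959, at 2 PETs. Of the 24 joining loops of HCT116, 14 (58.3%) were also seen in LS513, as were 18 of the 27 of SW620 (66.7%). Of all other loops in the same range of spans, 18.8% of 3303 in HCT116 and 12.0% of 6001 in SW620 were seen in LS513. Of the 68 joining loops in LS513, 14 (20.6%) were seen in HCT116 and 21 (30.9%) in SW620, against 7.44% and 8.02% of its 8400 other loops of such spans. Both of these libraries are shallower than LS513. HCT116 and SW620 had 6 joining loops in common, 25% of those of HCT116 and 22.2% of those of SW620. Of other loops of such spans, 9.20% in HCT116 were seen in SW620 and 5.67% in SW620 were seen in HCT116. For SW480, 1 of 3 joining loops was seen in LS513, against 10.3% of its 232 other loops. Pairs in an enriched class have more PETs, and the part of that in the sharing was not tested. The other loops were not limited to those with both anchors present in the other library. The part of missing anchors in their lower shares was not tested either.

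Between lines, the block totals of HCT116 and LS513 stayed within 2-fold. HCT116 over LS513 was 0.891 (0.814 to 0.974) for same-anchor PETs in block 1, 0.818 (0.753 to 0.888) in block 2, 0.825 (0.649 to 1.04) for loops within block 1 and 1.04 (0.858 to 1.25) within block 2. For joining loops it was 0.732 (0.451 to 1.15). With loops of at least 2 PETs only, HCT116 had 2 joining PETs and LS513 43, and the ratio was 0.153 (0.0180 to 0.589). At an FDR under 0.01 the counts were again 2 and 43 and the ratio was 0.180, so the 2 settings are not separate results. HCT116 has the lower depth, and the part of depth in these values was not tested. For same-anchor PETs, 12.1% of 4843 tested 300 kb windows were past 2-fold higher in HCT116 and 6.71% lower. At 900 kb, 8.58% and 5.59% of 2309 tested windows were. For loops within a window these shares were 9.18% and 13.9% of 1884 at 300 kb and 7.66% and 10.8% of 1358 at 900 kb. For windows placed like the blocks they were 4.25% and 22.6% of 212.

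Single anchors of the locus, each with fewer PETs than the totals, were also compared. Of the 46 anchors identical in HCT116 and LS513, 35 had at least 10 PETs in one of the libraries. Of these, 6 (17.1%) were past 2-fold higher in HCT116 and 5 (14.3%) lower, against 21.1% higher and 9.54% lower among all 16736 identical anchors with that many PETs. Both shares lay near those of all anchors. The median HCT116 over LS513 ratio was 0.995 at the histone anchors and 1.15 at all. The anchor most in favour of LS513 was chr6:27838290-27842982 at the far end, with 24 PETs in HCT116 and 184 in LS513, or 27.8 and 133 normalised, 4.77-fold higher in LS513 (3.11 to 7.64). Its neighbour chr6:27832285-27836565 had 21 and 90 PETs and was 2.67-fold higher (1.64 to 4.52), and the loop between these 2 anchors was the LS513 leader named above. Another far-end anchor, chr6:27773040-27783102, had 78 and 263 PETs and was 2.10-fold higher in LS513 (1.62 to 2.74). In the other direction, chr6:26222130-26228152 in block 1 had 27 PETs in HCT116 and 10 in LS513, 4.34-fold higher in HCT116 (2.04 to 10.0). The middle anchor chr6:27567330-27570076 had 41 and 23, 2.86-fold higher in HCT116 (1.68 to 5.00). The far end was not uniform. There chr6:27795129-27801132 had 17 and 13 PETs, 2.10-fold higher in HCT116 (0.961 to 4.70). At chr6:27855835-27865516 HCT116 over LS513 was 1.12 (0.863 to 1.46).

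**Figure D5:**
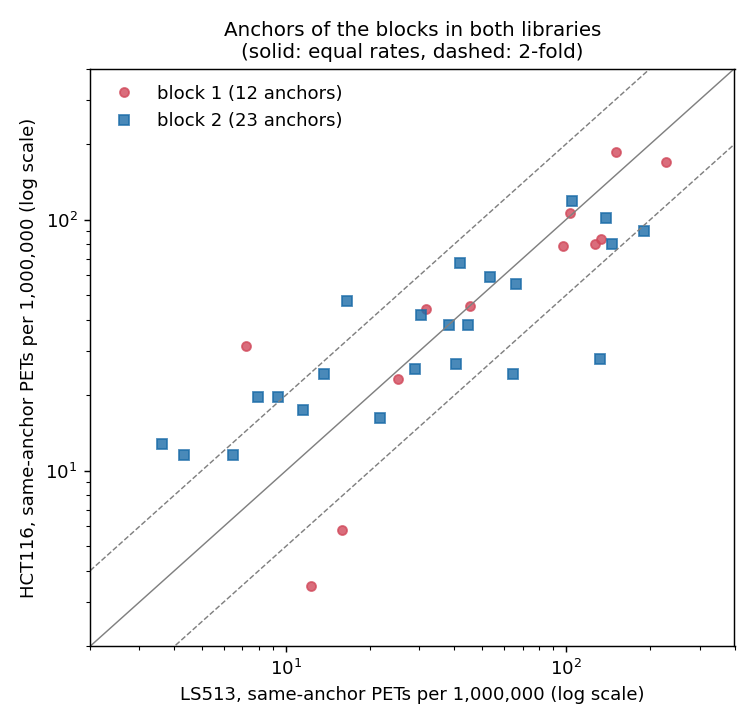
Same-anchor PETs per 1000000 of the 35 histone anchors with at least 10 PETs that are identical in LS513 and HCT116 (both axes log), with block 1 and block 2 marked apart and lines at equality and at 2-fold. Most anchors lie between the 2-fold lines, and the far-end anchor at 133 in LS513 and 27.8 in HCT116 lies farthest to the LS513 side.

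SW620 had fewer anchors and fewer PETs in block 2 than LS513, and its normalised PETs per kb of anchor there were alike. SW620 over LS513 was 0.842 (0.768 to 0.923) for same-anchor PETs in block 1 and 0.768 (0.633 to 0.929) for loops within it. With loops at an FDR under 0.01 only, the ratio within block 1 was 0.442 (0.310 to 0.619). In block 2 same-anchor PETs were 0.465 (0.419 to 0.514), 2.15-fold lower in SW620, where 22.3% of 2407 tested 900 kb windows were called lower. Loops within block 2 were 0.349 (0.277 to 0.436), 2.86-fold lower, where 21.8% of 1542 tested windows were. With 16 anchors in SW620 against 30 in LS513, the same-anchor ratio per kb of anchor was 1.01. At anchors overlapping in all 4 libraries it was 0.568 (0.486 to 0.661), so SW620 was lower at these shared anchors too. Per PETs of chromosome 6 it was 0.515, and neither of these 2 values is past 2-fold. The part of anchor number in the lower total was not tested. For loops within block 2, the ratio was 0.577 at anchors overlapping in all 4 libraries and 0.170 at an FDR under 0.01. Joining loops were 0.564 (0.373 to 0.837), within 2-fold, where 36.3% of windows placed like the blocks were called lower and 12.2% higher.

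SW480 and SW620 did not differ past 2-fold in any of the 5 quantities. SW620 over SW480 was 0.729 (0.610 to 0.876) and 1.29 (0.979 to 1.72) for same-anchor PETs in blocks 1 and 2, and 0.563 (0.374 to 0.880) and 1.12 (0.545 to 2.66) for loops within them. For joining loops it was 1.09, with an interval from 0.345 to 5.55 that rests on 3 PETs in SW480. Within block 1 it was 1.01 for loops at anchors overlapping in all 4 libraries, and 1.61 at an FDR under 0.01, from 2 PETs in SW480. Within block 2 it was 3.29 (0.881 to 27.6) with loops of at least 2 PETs, also from 2 PETs in SW480. For same-anchor PETs, 34.1% of 4503 tested 300 kb windows were past 2-fold higher in SW620 and 20.3% lower. At 900 kb, 29.5% and 20.9% of 2214 were. For loops within a window these shares were 17.4% and 11.8% of 1792 at 300 kb and 25.2% and 15.4% of 1321 at 900 kb. For windows placed like the blocks 1.22% of 82 were higher and none lower.

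Contacts with other chromosomes were spread thinly over many partners, at rates of the order of those of all anchors. Per 100 same-anchor PETs, block 1 had 7.11 interchromosomal PETs in HCT116 (5.34 to 9.27), 7.66 in LS513 (6.26 to 9.27), 11.8 in SW620 (9.40 to 14.6) and 2.68 in SW480 (0.731 to 6.87). All anchors of those libraries had 7.10, 9.61, 13.4 and 6.11. The block 1 interval lay below the value of all anchors in LS513 and included it in the other libraries. Block 2 had 9.90 (7.92 to 12.2) in HCT116, 6.68 (5.51 to 8.02) in LS513 and 8.28 (5.92 to 11.3) in SW620, above all anchors in HCT116 and below them in LS513 and SW620. SW480 had 0 for 58 same-anchor PETs, which allows up to 6.36. Of the 1 Mb windows in contact with the blocks, 118 of 129 had 1 PET in HCT116, 165 of 190 in LS513, 103 of 113 in SW620 and 4 of 4 in SW480. The most was 4 PETs, between LS513 block anchors and the window at 47 to 48 Mb of chromosome 19.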

How the data were processed

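H3K27ac HiChIP was deposited for 4 cell lines with 1 library each. The submitters' processing notes name HiC-Pro and the hg19 (GRCh37) build. For the loop caller, the peak caller, the anchor source and reads that fit several near-identical histone genes, the method is not given in the sources used here. Per the labels' protocols, chromatin was cut with MboI and libraries were made with Tn5. The deposited values are whole-number PET counts per anchor pair, not normalized by the authors. A further deposited column without a header, between 0 and 1, was taken to be an adjusted p-value (FDR) computed by the authors.

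Anchors were placed by midpoint, on chromosomes 1 to 22 and X. Filtered loops had anchor midpoints 5 kb to 2 Mb apart. Rates are per 1000000 filtered or same-anchor PETs of the library. Expected PETs came from 100 kb distance bins over all chromosomes. Rates and ratios over expectation have exact Poisson intervals, and ratios of 2 counts exact conditional Clopper-Pearson intervals. PETs carry no molecular identifiers, so intervals treat them as independent. A difference was called past 2-fold with at least 10 PETs in the higher library. Anchors were merged, and loops matched between libraries, with 1 bp of overlap. Gene order and promoters came from RefSeq (GRCh38.p14), whose coordinates are not those of the hg19 anchors. 48 of 53 genes matched a promoter. H2AC1 and H2BC1 stand apart from the runs in gene order and were left out. The plan to compare histone proteins was not carried out, and proteins are not analysed here.

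Named in the text were, per library, anchors among the 5 strongest of both blocks and loops among the 3 strongest of each class. Other anchors were named after their values were seen. The members, lists and comparisons were chosen with earlier results of these data known. Alternatives covered scaling, distance bins, PET and FDR minimums, and shared anchors. The parts of block 2, identical anchors, the gap class and leaving out the leading pair were added after seeing the data, as were the shares of loops and anchor regions found in other libraries over the genome. The counting and expectation steps were tested on simulated data. The tools were scipy 1.17.1, pandas 2.3.3, numpy 2.4.6 and matplotlib 3.10.9 under Python 3.11.15.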

Additional observations from a re-analysis of the deposited data

How the results depend on the processing

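Of 120 alternative values for 29 results, 87 stayed the same, 32 moved and 1 reversed. The reversal was the SW620 over LS513 same-anchor ratio in block 2, at 1.01 per kb of anchor. Per PETs of chromosome 6, SW620 over LS513 was 0.933 in block 1 and 0.515 in block 2 for same-anchor PETs. At anchors overlapping in all 4 libraries, HCT116 over LS513 was 0.697 for same-anchor PETs in block 2, 1.04 for loops within block 1 and 0.736 within block 2. There SW620 over LS513 was 0.685 and 0.568 for same-anchor PETs in blocks 1 and 2 and 0.577 for loops within block 2, and SW620 over SW480 was 1.04 for same-anchor PETs and 1.01 for loops of block 1. With loops of at least 2 PETs, HCT116 over LS513 was 0.153 for joining loops and SW620 over SW480 3.29 within block 2. At an FDR under 0.01, HCT116 over LS513 was 0.815 within block 2 and 0.180 joining, SW620 over LS513 0.442 and 0.170 within blocks 1 and 2, and SW620 over SW480 1.61 within block 1.

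Expected from chromosome 6, the observed over expected ratio was 2.24 in HCT116 and 3.44 in LS513 for joining pairs, and 1.47 and 1.10 within blocks 1 and 2 in LS513. Weighted by same-anchor PETs, it was 2.99, 1.82, 2.84 and 2.20 within block 2 in HCT116, LS513, SW480 and SW620, and 1.44 and 1.23 within block 1 in SW480 and SW620. Joining pairs then had 6.61 in HCT116, 6.80 in LS513 and 11.5 in SW620, and the ends of block 2 over its middle 3.71 in LS513. For HCT116 the ends over the middle were 3.51 (1.35 to 10.7), and weighted 2.48 (0.952 to 7.59), so the excess was then not detectable. Without the leading pair, SW620 within block 1 was 0.869. The cause of these shifts was not tested. Settings that left SW480 with 0 joining PETs gave no value. No paired analysis was possible because each line had 1 library. Depth limits SW480 most, where 3 joining PETs leave its joining interval wide.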

Other observations

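The placements that reached the histone ratio in these libraries were few and differed by line. In LS513 they included chr6:29700001-30000000 with chr6:30700001-31600000, at 138 PETs and a ratio of 19.3, and chr7:25800001-26100000 with chr7:26800001-27700000, at 84 PETs and 24.4. In SW620 they were chr22:18900001-19200000 with chr22:19900001-20800000, at 65 PETs and 10.1, and chr5:1-300000 with chr5:1000001-1900000, at 27 PETs and 8.90. The HCT116 placements, on chromosomes 11 and 17, had 14 PETs and a ratio of 3.87 and 15 PETs and a ratio of 3.89. Only placements with at least 3 expected PETs were compared in each library, so a placement listed for 1 line may not have been compared in another.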
